A study of Homo sapiens with 6 samples.

Results

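The genes described here encode the subunits, activators, inhibitor and assembly chaperones of the proteasome. They were chosen as the protein-coding genes of the deposited count table whose symbol is PSMA, PSMB, PSMC, PSMD, PSME, PSMF or PSMG followed by a number, which gave 48 of 60662 genes. Of these, 43 had enough counts to be tested, among 14425 genes tested in all. The 5 others were PSMA8, PSMB8, PSMB9, PSMB10 and PSMB11.

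Paired-end, strand-specific mRNA sequencing was done on the human Ewing sarcoma line TC-71, an established line. The wildtype group had 3 libraries and the XG knockout group had 3 libraries of the same line, all untreated and grown in the same serum-containing medium. The XG protein is a glycoprotein of the cell surface and the antigen of the Xg blood group, and the comparison asked how expression differed when it was knocked out. From the labels it is not known if the knockout cells were 1 clone or a pool, or if replicates were separate cultures. The p-values therefore reflect the spread among these 6 libraries alone, part or all of which could be technical.

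The proteasome degrades proteins that carry ubiquitin chains. Its core particle is a barrel of stacked rings: alpha subunits form the outer gates, and beta subunits form the inner rings that hold the proteolytic sites. The regulatory particle caps the barrel, with a base of ATPases that unfold substrates, scaffold subunits that bind ubiquitin or its shuttles, and a lid that removes the chains. Immune signals such as interferon replace the catalytic beta subunits with inducible counterparts, forming the immunoproteasome, and other activators can cap the core in place of the regulatory particle. Because the complex has a fixed stoichiometry, its genes are often controlled together, in particular by the transcription factor NFE2L1.

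Counts per library ranged from 22557187 to 31214099, and the 48 members took 0.822% to 0.845% of them. In counts scaled to library size (CPM), XG stood at 45.4, 47.1 and 44.4 in wildtype and at 29.97, 29.98 and 28.9 in knockout, so it was lower in every knockout library but not absent (log2 fold change -0.63, SE 0.0478, adjusted p = 1.65e-06). Markers of Ewing sarcoma lines were present in every library, with CD99 at 455 to 503 CPM and CCND1 at 1337 to 1429 CPM. The blood markers PTPRC and CD3E were at or below 0.121 CPM, the epithelial markers CDH1 and EPCAM at or below 0.0724 and 0.321 CPM, and the endothelial markers PECAM1 and CDH5 at or below 0.0445 and 0.181 CPM. The epithelial keratin KRT8 was higher, at 2.94 to 4.24 CPM. Of the fibroblast markers, COL1A1 lay at 25.8 to 32.7 CPM, DCN at 6.01 to 7.39 and LUM at 2.89 to 4.34 over the 6 libraries. Knockout replicate 3 stood apart: 196 of 14425 genes passed an adjusted p of 0.05 with all libraries, 1851 passed without it, and 125 passed when it alone was set against wildtype. Values after a correction for transcript GC content, with which 339 genes passed, are given beside many of the estimates, and for all 43 tested members in the plot of fold changes by role.

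No proteasome gene passed the threshold between knockout and wildtype. The 43 tested members gave 0 calls by edgeR's quasi-likelihood test with Benjamini-Hochberg adjustment over all genes, where 1.36% of all genes were called (0.444% higher and 0.915% lower). At an unadjusted p under 0.05 there were 9 members, 7 lower and 2 higher in knockout, which is 20.9% of members beside 16.8% of all genes (9.81% lower and 6.98% higher). DESeq2 and limma voom each called 1 member, the lid gene PSMD8, as lower, beside 1.67% and 1.07% of genes called lower with them. Library groups did not overlap for 12 members (27.9%), beside 20.5% of all genes, and 10 of the 43 (23.3%) were lower in knockout without overlap, beside 9.8% of all genes.

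The differences were small and closely bounded. The median log2 fold change of the 43 members was -0.025, beside 0.0019 over all genes, and 24 members were negative (55.8%, beside 49.1% of genes). The median absolute log2 fold change was 0.0367 among members and 0.0716 among all genes, and the median SE was 0.0321 and 0.0636. For 39 of the 43 members the 95% interval of the fold change lay within 0.2 of 0 on the log2 scale, which is a change between 12.9% lower and 14.9% higher. The 4 exceptions were PSMA2, PSMA6, PSMD9 and PSMG4, which had the lowest CPM of the tested members, and the widest bounds over all members were -0.37 and 0.14. Since these are bulk samples, fewer cells expressing a gene and less RNA per cell cannot be told apart.

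**Figure D1:**
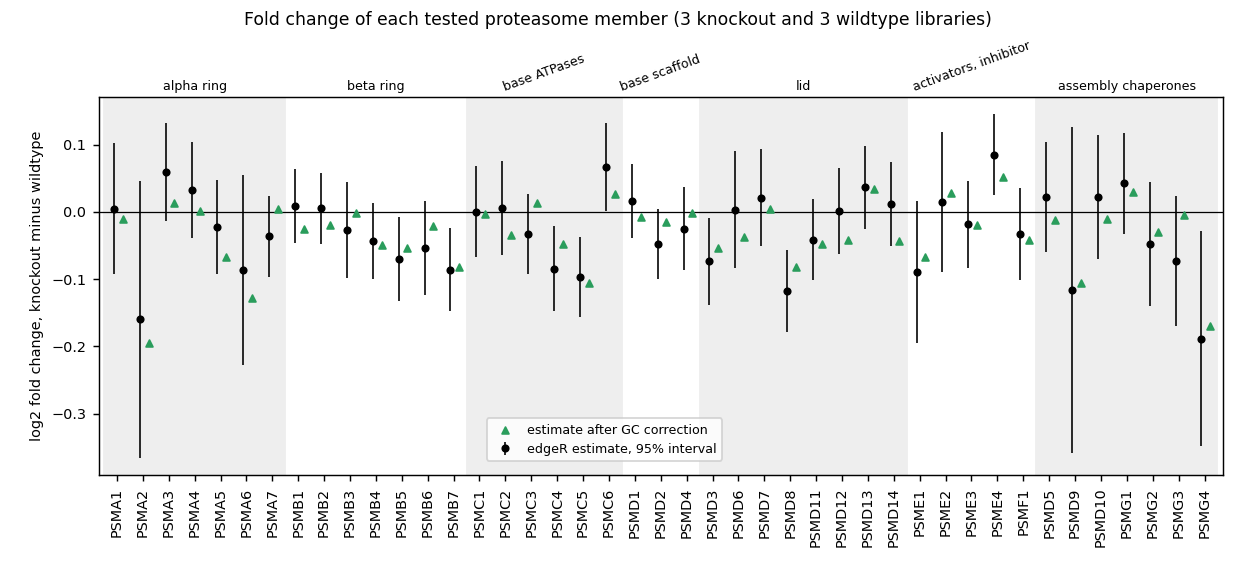
Log2 fold change of knockout minus wildtype for each of the 43 tested members, grouped by role: black points are edgeR estimates with 95% intervals, and green triangles are estimates after GC correction (3 libraries a group). Most intervals cross 0 and lie within 0.2 of it, and those of PSMA2, PSMA6, PSMD9 and PSMG4 are the widest.

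The summed level of each role group differed little between genotypes. All 48 members together had 8424, 8402 and 8368 CPM in wildtype and 8462, 8197 and 8204 in knockout. Knockout replicate 1 thus lay above the wildtype libraries, and knockout replicates 2 and 3 lay below. The knockout mean was 99.9% of wildtype for the alpha ring, 97.9% for the beta ring, 97.8% for the base ATPases, 98.5% for the base scaffold, 98.6% for the lid, 101.3% for the activators and inhibitor, and 99.7% for the assembly chaperones. The summed levels of wildtype and knockout libraries overlapped in every role group. In the alpha ring, wildtype summed to 984, 964 and 945 CPM and knockout to 989.7, 953 and 949. Per library, the median log2 ratio of the members to their wildtype mean was 0.0040, -0.036 and -0.031 in knockout replicates 1, 2 and 3.

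The alpha ring had 1 gene well above the others. Alpha subunits carry the gate through which substrates enter the core. Per kilobase of exon model, PSMA7 was the most abundant alpha gene at 168 ± 3.04 CPM per kb in wildtype (SD, n = 3), followed by PSMA3 at 41.0 ± 0.404, PSMA5 at 40.3 ± 0.759 and PSMA4 at 35.3 ± 1.1. PSMA3 and PSMA5 differed by less than the SD of PSMA5 but by more than that of PSMA3. The ratio of highest to lowest was 4.76. The other 3 alpha genes tested, PSMA1, PSMA2 and PSMA6, share exons on the same strand with an annotated read-through gene.

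The shared exons bear on the counts of 5 members. The deposited counting set no option for fragments that overlap several genes, so such fragments were not counted. Of the principal transcript, the shared part was 81.0% in PSMA6, 53.2% in PSMA1, 52.5% in PSMA2, 44.99% in PSMB10 and 28.2% in PSMD9. The read-through genes themselves had at most 2 counts in a library beside PSMA6, PSMA1, PSMA2 and PSMD9, and 19 to 33 counts beside PSMB10. Levels of these 5 genes therefore count only their unshared part, and they are left out of every order of levels. PSMA1 had 43.1 ± 1.76 CPM in wildtype, PSMA6 15.8 ± 0.697 CPM, PSMA2 6.99 ± 0.333 CPM and PSMD9 5.69 ± 0.317 CPM, beside 127 to 294 CPM for the 4 alpha genes without sharing.

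**Figure D2:**
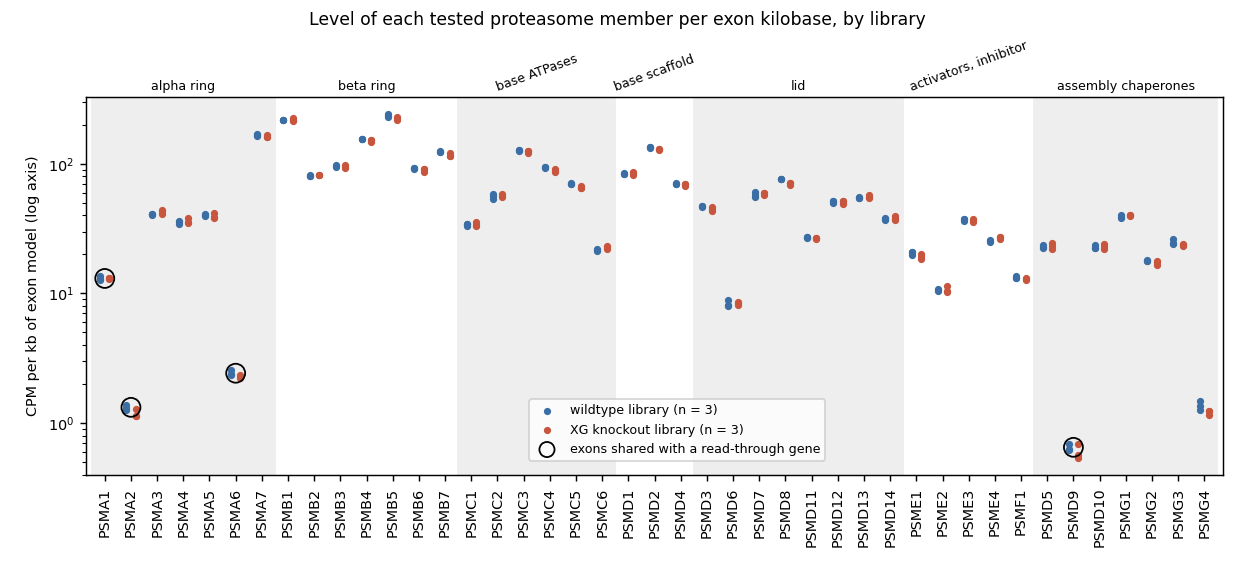
Level of each of the 43 tested members in CPM per kilobase of exon model (log axis), 1 point per library, with wildtype and XG knockout libraries side by side and members grouped by role. The 4 circled members share exons with a read-through gene and lie low, and the wildtype and knockout points of each member lie close together.

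None of the 7 tested alpha genes had an unadjusted p under 0.05. The smallest p among them was that of PSMA3, an alpha subunit gene on chromosome 14 (58244843 to 58272012, plus strand, GRCh38). It had 128, 128 and 126 CPM in wildtype and 138, 134 and 127 in knockout, so the groups overlapped (log2 fold change 0.059, SE 0.0347, adjusted p = 0.419; 0.014 after GC correction). Without knockout replicate 3 it was called higher, as were 3.58% of all genes in that fit (0.091, adjusted p = 0.0458; range over alternatives 0.0458 to 0.976). PSMA7 had 299, 295 and 288 CPM in wildtype and 282, 283 and 295 in knockout (-0.037, SE 0.0287, adjusted p = 0.566), and the groups overlapped. PSMA2 had the most negative estimate of the ring (-0.16, SE 0.098, adjusted p = 0.442), with 6.95, 6.68 and 7.34 CPM in wildtype against 6.75, 6.04 and 6.01. Its groups overlapped as well. PSMA8, a testis-specific alpha subunit, had 0 counts in all 6 libraries, which allows at most 0.0186 CPM over the 161687007 counts (3 counts; counting error only).

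The beta ring was the most abundant group per length. PSMB5, the chymotrypsin-like subunit, stood at 235 ± 5.31 CPM per kb of exon model and PSMB1, a structural beta subunit, at 219 ± 0.482. PSMB2, another structural subunit, was lowest at 81.5 ± 0.324, a ratio of 2.89 between highest and lowest. Scaled to the principal transcript instead, PSMB1 came first (523 ± 1.15 CPM per kb) and PSMB5 followed PSMB4 (282 ± 6.36), while PSMB2 remained lowest (137 ± 0.544), so the order at the top depends on the transcript length used. PSMB2 varied little between libraries, with 368, 368 and 371 CPM in wildtype and 372, 369.8 and 369 in knockout (log2 fold change 0.0051, SE 0.0253, adjusted p = 0.941; -0.020 after GC correction). Its groups overlapped.

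The 3 constitutive catalytic subunits all had negative estimates and none was called. PSMB7, the trypsin-like subunit (chromosome 9, 124353465 to 124415444, minus strand), had 221, 221 and 224 CPM in wildtype and 215, 207 and 205 in knockout. Every knockout library lay below every wildtype library (log2 fold change -0.086, SE 0.0294, adjusted p = 0.144). It was called lower only when knockout replicate 3 alone was compared, where 0.359% of genes were (adjusted p = 0.0338; range over alternatives 0.0338 to 0.348). PSMB5 (chromosome 14, 23016543 to 23035230, minus strand) had 357, 373 and 364 CPM in wildtype and 357, 335 and 350.1 in knockout, and the groups overlapped (-0.069, SE 0.0298, adjusted p = 0.245). PSMB6, the caspase-like subunit (chromosome 17, 4796144 to 4798502, plus strand), had 133, 136 and 134 CPM in wildtype and 132, 124 and 131 in knockout, with no overlap (-0.054, SE 0.0331, adjusted p = 0.441). After GC correction their estimates were -0.083 for PSMB7, -0.054 for PSMB5 and -0.021 for PSMB6, and none was called.

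The inducible counterparts of these 3 subunits were almost undetected in both genotypes. PSMB8, which replaces PSMB5 in the immunoproteasome, had 1, 2 and 2 counts in wildtype and 0, 1 and 4 in knockout, 10 in all beside 57390 for PSMB5. PSMB9, which replaces PSMB6, had 0, 2 and 2 counts in wildtype and 1, 1 and 1 in knockout, 7 in all beside 21223. PSMB10, which replaces PSMB7, had 11, 9 and 3 counts in wildtype and 3, 8 and 11 in knockout, 45 in all beside 34753, with the shared exons stated above. A floor of 3 counts corresponds to 0.0949 to 0.134 CPM in these libraries, so all values of PSMB8 and PSMB9 but 1 lie at or under it. PSMB8 (32840717 to 32844679) and PSMB9 (32844136 to 32859851) are neighbours in the MHC region of chromosome 6, and PSMB10 lies on chromosome 16 (67934506 to 67936864).

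As a share of each catalytic pair per kilobase, the inducible subunit made up 0.00819% ± 0.0033 in wildtype and 0.00725% ± 0.00917 in knockout for PSMB8 with PSMB5 (SD, n = 3; exact permutation test, two-sided, p = 0.9). The share of PSMB9 with PSMB6 was 0.0178% ± 0.0155 and 0.0119% ± 0.00116 (exact permutation p = 0.5), and that of PSMB10 with PSMB7 was 0.145% ± 0.0699 and 0.133% ± 0.0711 (exact permutation p = 0.9). The PSMB10 share sets counts from its unshared exons against the full exon length, so it may be understated in both genotypes. All 3 adjusted p-values were 0.9, and 3 libraries against 3 cannot give a p below 0.1. Counts this low leave a difference in the inducible subunits undetectable at this depth. PSMB11, the beta subunit of the thymus-specific proteasome, had 0 counts in all 6 libraries.

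**Figure D3:**
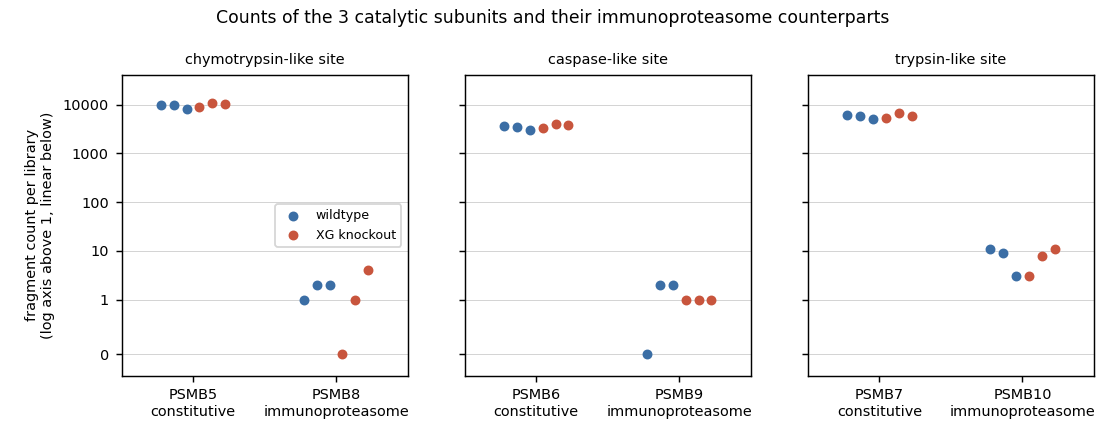
Fragment counts in each library for the constitutive catalytic subunits PSMB5, PSMB6 and PSMB7 and their immunoproteasome counterparts PSMB8, PSMB9 and PSMB10 (log axis above 1, linear below). The constitutive genes lie at 3009 counts or more in every library and the inducible genes between 0 and 11 in both genotypes.

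Promoter sequence was read for 42 of the 48 members from RefSeq (GRCh38.p14), taking the 250 bases before the annotated start. The interferon-stimulated response element, searched on both strands as GAAA, NN and GAAA in a row, was found in 5 of the 42 (11.9%: PSMA4, PSMB4, PSMB10, PSME2 and PSMG4), beside 3.71% of 27305 genes and 3.21% of 9996 tested protein-coding genes. PSMB10 and PSME2 are shown because these interferon-inducible genes carry the same letters while the former was almost undetected and the latter expressed. Capitals mark the match, which is a description of the letters and not a binding site. These windows are set by the RefSeq start and are not free of transcribed sequence. GENCODE 29 places exons of either strand over 237 of the 250 bases before PSMB10 and all 250 before PSME2. The PSME2 stretch lies inside the gene as counted here. Part of the PSMB10 stretch does too, since PSMB10 as counted reaches to 67936864 on chromosome 16. The PSMB10 stretch is chr16:67936852-67936881 (minus strand) and the PSME2 stretch chr14:24146619-24146648 (minus strand), with matches starting 21 and 28 bases before the RefSeq start.
PSMB10: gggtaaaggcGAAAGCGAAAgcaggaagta
PSME2: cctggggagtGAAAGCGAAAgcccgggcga

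The base of the regulatory particle held PSMC5, the only member called after GC correction. The 6 ATPases form a ring that unfolds the substrate and feeds it into the core. PSMC5 (ENSG00000087191.13, chromosome 17, 63827152 to 63832026, plus strand) had 305, 297 and 299 CPM in wildtype and 289, 277 and 277 in knockout, with no overlap (log2 fold change -0.097, SE 0.0283, adjusted p = 0.0967). After GC correction the estimate was -0.11 (SE 0.0237, adjusted p = 0.0079), where 1.27% of genes were called lower. It was called lower in 5 of 17 alternatives, among them without knockout replicate 3 (adjusted p = 0.029) and with that library alone (adjusted p = 0.0142), and its adjusted p ranged from 0.0079 to 0.335 over all of them.

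The other ATPases went in both directions without a call. PSMC4, on chromosome 19, had 237, 240.5 and 240.3 CPM in wildtype and 234, 219.7 and 224 in knockout, with no overlap (-0.085, SE 0.03, adjusted p = 0.159), and its estimate was -0.048 after GC correction. PSMC6 had 164, 159.7 and 162 CPM in wildtype and 173, 171 and 164 in knockout, where the lowest knockout library lay just above the highest wildtype library (0.067, SE 0.0311, adjusted p = 0.289). It was called higher without knockout replicate 3 (adjusted p = 0.0372; range over alternatives 0.0372 to 0.892) and had an estimate of 0.026 after GC correction. PSMC3 was the most abundant ATPase per kilobase of exon model at 127 ± 0.967 CPM and PSMC6 the least at 21.6 ± 0.266. Per kilobase of the principal transcript PSMC5 led at 190.2 ± 2.76 and PSMC1 was lowest at 47.0 ± 1.09. PSMC3 itself had 287, 289 and 292 CPM in wildtype and 288, 274 and 286 in knockout (-0.033, SE 0.0282, adjusted p = 0.6; 0.013 after GC correction), and the groups overlapped.

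Of the base scaffold, PSMD2 was the member with the highest CPM of all. PSMD1 and PSMD2 are the large scaffold subunits, and PSMD4 is a ubiquitin receptor. PSMD2 had 654, 668 and 672 CPM in wildtype and 649, 635 and 645 in knockout (-0.048, SE 0.0248, adjusted p = 0.349; -0.015 after GC correction), and every knockout library lay below every wildtype library. PSMD4 had 210.0, 212 and 216 CPM in wildtype and 213, 204 and 210.2 in knockout (-0.025, SE 0.0294, adjusted p = 0.726; -0.0017 after GC correction), with overlap. Per kilobase of exon model PSMD2 reached 134 ± 1.93 CPM, PSMD1 83.7 ± 0.552 and PSMD4 70.3 ± 0.992, so these 3 subunits lay within a factor of 1.91.

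The lid held PSMD8, the member nearest the threshold. PSMD8 encodes a structural lid subunit (ENSG00000099341.11, chromosome 19, 38374536 to 38383824, plus strand). It had 236, 237 and 236 CPM in wildtype and 219, 212 and 223 in knockout, so the wildtype libraries lay close together (SD 0.865 CPM) and every knockout library lay below them. Its log2 fold change was -0.12 (SE 0.029, adjusted p = 0.0505). It passed the threshold in DESeq2 (adjusted p = 0.0275), limma voom (0.0441), with relative log expression scaling (0.0476), with no filter on low counts (0.0176) and without knockout replicate 3 (0.00053), where 9.1% of genes were called lower. In the other 12 of 17 alternatives it did not, up to an adjusted p of 0.242. The authors' deposited table gives PSMD8 an adjusted p of 0.0238, the only one under 0.05 among the 39 members that have one there.

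PSMD8 lies on chromosome 19. Over the 981 tested genes of this chromosome the median estimate was -0.095, and -0.037 after GC correction. PSMD8 has 55.0% GC and its own estimate was -0.082 after GC correction (adjusted p = 0.063). The part of the chromosome or of GC content in the PSMD8 difference was not tested further.

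Other lid genes differed less. PSMD3, a lid scaffold subunit, had 235, 232 and 231 CPM in wildtype and 222, 213 and 229 in knockout, with no overlap (-0.073, SE 0.0309, adjusted p = 0.238; -0.053 after GC correction). It was called lower without knockout replicate 3 (adjusted p = 0.012; range over alternatives 0.012 to 0.881). PSMD14, the deubiquitinase that cuts ubiquitin chains from the substrate, had 279, 274 and 270.0 CPM in wildtype and 287, 272 and 271 in knockout, and the groups overlapped (0.012, SE 0.0297, adjusted p = 0.882). The sign of this estimate turned after GC correction (-0.043) and with knockout replicate 3 alone (-0.019), neither of them called. PSMD6 was the lowest lid gene per kilobase of exon model (8.36 ± 0.421 CPM, beside 76.2 ± 0.279 for PSMD8), but not per principal transcript, where it stood at 53.4 ± 2.69 and PSMD11 was lowest at 47.1 ± 0.47. It had 80.7, 73.4 and 74.9 CPM in wildtype and 77.3, 77.9 and 74.4 in knockout (0.0034, SE 0.0414, adjusted p = 0.979), with overlap, and the sign of this near-zero estimate changed between alternatives.

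Among the activators, PSME4 was one of 2 members with a positive estimate and an unadjusted p under 0.05, beside PSMC6. PSME4 is a large activator that caps the core without ATP (ENSG00000068878.15, chromosome 2, 53864069 to 53970993, minus strand). It had 261, 269 and 262 CPM in wildtype and 285, 282 and 273 in knockout, so every knockout library was higher (0.085, SE 0.0284, adjusted p = 0.135). Its estimate was 0.10 without knockout replicate 3 (adjusted p = 0.0069), 0.049 with that library alone (adjusted p = 0.596) and 0.052 after GC correction (adjusted p = 0.279), and these 2 adjusted p-values of 0.0069 and 0.596 were the extremes over alternatives.

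The interferon-inducible activator pair was expressed, unlike the inducible catalytic subunits. PSME1 had 37.2, 37.0 and 35.4 CPM in wildtype and 35.9, 32.95 and 34.4 in knockout (-0.09, SE 0.0502, adjusted p = 0.392), with overlap. PSME2, its partner in the activator ring, had 37.4, 38.5 and 38.3 CPM in wildtype and 37.0, 40.7 and 37.5 in knockout (0.015, SE 0.0499, adjusted p = 0.913), also with overlap. PSME3, a nuclear activator that forms its own ring, had 193, 195 and 186 CPM in wildtype and 193, 189 and 185 in knockout (-0.018, SE 0.0307, adjusted p = 0.813). PSMF1, an inhibitor of the core in vitro, had 136, 142 and 136 CPM in wildtype and 135, 132 and 137 in knockout (-0.033, SE 0.0324, adjusted p = 0.667). The groups overlapped for both. Per kilobase the order was PSME3, PSME4, PSME1, PSMF1 and PSME2 with either length, from 37.1 ± 0.921 to 10.6 ± 0.157 CPM per kb of exon model.

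The antioxidant response element core, the motif recognised by NFE2L1 and its relatives, was searched as TGACNNNGC on both strands of the same 250 bases. It was found in 13 of the 42 members (30.95%), beside 13.22% of all 27305 genes and 15.79% of the tested protein-coding genes. PSMD3 and PSME4 are shown because both have it close to the start and their estimates had opposite signs. The PSMD3 window is chr17:39980557-39980806 (plus strand), with a match starting 37 bases before the start, and the PSME4 stretch is chr2:53971008-53971037 (minus strand), with the reverse complement starting 34 bases before it. Exons of either strand cover 10 of the 250 bases before PSMD3 and all 250 before PSME4. The ETS site, searched as CCGGAAGT, was found in 6 members (14.29%, beside 4.13% of all genes and 8.33% of the tested protein-coding genes), and one of them is PSMD8, at chr19:38374541-38374570 (plus strand), with the reverse complement starting 18 bases before the RefSeq start. That start lies downstream of the start of PSMD8 in the count table, so the stretch is inside the gene as counted. ETS factors include FLI1, which forms part of the fusion oncoprotein of Ewing sarcoma. The CCAAT box, searched as CCAAT, was found in 19 members (45.24%, beside 37.0% of all genes and 41.83% of the tested protein-coding genes).
PSMD3: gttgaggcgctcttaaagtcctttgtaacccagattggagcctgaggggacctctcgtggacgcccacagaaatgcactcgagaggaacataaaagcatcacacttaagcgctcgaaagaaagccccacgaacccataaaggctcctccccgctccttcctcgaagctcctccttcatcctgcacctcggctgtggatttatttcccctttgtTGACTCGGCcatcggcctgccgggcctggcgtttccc
PSME4: cccggcggctGCAGCGTCAccagcagagcc
PSMD8: gggcaaaagccaACTTCCGGtcaccatctt

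The 7 assembly chaperones gave no call either. PSMG1 to PSMG4 assemble the core, and PSMD5, PSMD9 and PSMD10 the base. PSMG1 was highest per kilobase of exon model at 39.1 ± 1.08 CPM and PSMG4 lowest of those without shared exons at 1.37 ± 0.111. PSMG4 has a long merged exon model, and per principal transcript it stood at 17.01 ± 1.4 beside 39.0 ± 1.08 for PSMG1. PSMG4 also had the most negative estimate of the 43 members, -0.19 (SE 0.076, adjusted p = 0.212), from 14.1, 15.5 and 13.2 CPM in wildtype and 12.8, 11.99 and 12.9 in knockout, which did not overlap. PSMG1 had 86.7, 82.99 and 82.5 CPM in wildtype and 87.3, 85.7 and 86.9 in knockout (0.042, SE 0.0358, adjusted p = 0.602), with overlap. PSMD9 had 5.57, 5.45 and 6.05 CPM in wildtype and 4.74, 4.93 and 6.01 in knockout (-0.12, SE 0.115, adjusted p = 0.671), where knockout replicate 3 alone lay within the wildtype range.

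The members' fold changes followed GC content. Across the 43 members, the log2 fold change had a Pearson correlation of -0.488 and a Spearman correlation of -0.539 with the GC content of the longest transcript, and after GC correction the Pearson value was 0.025. The correction removes each library's trend on this same GC content, so a fall towards 0 is built into it. Both correlations describe genes of the same 6 libraries, which are not independent replicates. The members spanned 32.0% to 58.8% GC with a median of 47.9%, and the median over all genes tested was 48%. After correction the median log2 fold change was -0.021 and 33 members were negative (76.7%), beside 49.6% of all genes.

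**Figure D4:**
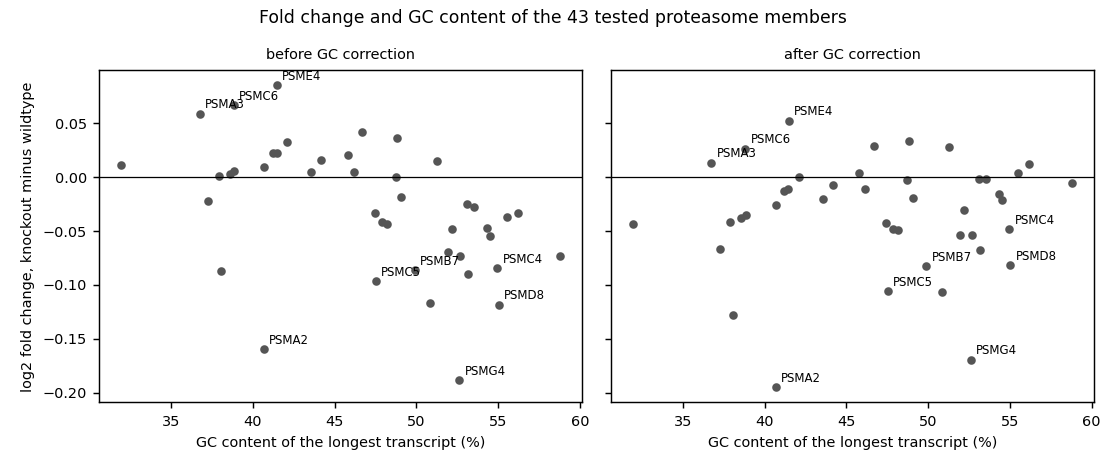
Log2 fold change of knockout minus wildtype against GC content of the longest transcript for the 43 tested members, before (left) and after (right) GC correction, 1 point per gene. Before correction PSMA3, PSMC6 and PSME4 lie high at low GC and PSMC4 and PSMD8 low at high GC (Pearson -0.488), and after it the correlation was 0.025. The correction removes the trend on GC content, so a fall towards 0 is built into it.

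Among genes that work with the proteasome, ADRM1 was called. The list of assembly factors and bound cofactors had 14 tested genes, 0 higher and 1 lower, with 4 positive and 10 negative estimates and a median log2 fold change of -0.022. ADRM1, a ubiquitin receptor bound to the proteasome (chromosome 20, 62302093 to 62308862, plus strand), fell from 231, 237 and 232 CPM to 192, 191 and 224 in knockout. The knockout libraries were all lower, but replicate 3 lay near wildtype (-0.21, SE 0.0457, adjusted p = 0.0319). The call held after GC correction with a smaller estimate (-0.097, adjusted p = 0.0264). It was lost without any 1 of wildtype replicates 1, 2 and 3 or knockout replicates 1 and 2 (adjusted p 0.115 to 0.189) and with knockout replicate 3 alone (-0.057, adjusted p = 0.536), while without knockout replicate 3 it was -0.29 (adjusted p = 6.8e-10). POMP, the maturation factor of the core, had 182, 182 and 179.8 CPM in wildtype and 198, 195 and 187 in knockout, with no overlap. Its log2 fold change was 0.093 (SE 0.0302, adjusted p = 0.127), or 0.043 after GC correction. The fit without knockout replicate 3 called 3.58% of all genes higher and 9.1% lower. Without knockout replicate 3, POMP was called higher (0.12, adjusted p = 0.0038; range over alternatives 0.0038 to 0.667), as was UCHL5 (0.10, adjusted p = 0.0148; range 0.0148 to 0.726), and ZFAND2A was called lower (-0.28, adjusted p = 0.0393; range 0.0393 to 0.403).

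The factors that control proteasome transcription gave 0 calls among 10 tested genes by edgeR with all libraries. The fit without knockout replicate 3 called 3.58% of all genes higher and 9.1% lower. Without knockout replicate 3, KEAP1 was called lower (-0.17, adjusted p = 0.00057; range over alternatives 0.00057 to 0.896) and BACH1, a repressor that competes for the same motif, higher (0.13, adjusted p = 0.0308; range 0.0308 to 0.818). KEAP1, which holds NFE2L2 inactive, had 94.3, 99.6 and 100.3 CPM in wildtype and 89.1, 84.8 and 96.3 in knockout, with overlap (-0.12, SE 0.0437, adjusted p = 0.161; -0.044 after GC correction). NFE2L1 had 217, 226 and 223 CPM in wildtype and 212, 209.5 and 212 in knockout, with no overlap (-0.071, SE 0.0285, adjusted p = 0.209; -0.033 after GC correction). Of the 10, 4 estimates were positive and 6 negative, with a median of -0.011.

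The list of ubiquitin genes, activating enzymes, shuttles and unfoldase also gave 0 calls with all libraries, among 16 tested genes. Without knockout replicate 3, 4 of them were called lower, among them the activating enzyme UBA1 (-0.081, adjusted p = 0.0281; range over alternatives 0.0281 to 0.9997) and NPLOC4, a VCP partner (-0.080, adjusted p = 0.0369; range 0.0369 to 0.635). In that fit 9.1% of all genes were called lower. Of the 16, 5 estimates with all libraries were positive and 11 negative. Their median on the log2 scale was -0.031, or -0.026 after GC correction. The list covers the genes that encode ubiquitin, the enzymes that activate it, the shuttles that carry ubiquitinated proteins to the proteasome and the VCP unfoldase with its partners.

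Partners of the immunoproteasome in antigen presentation were measured beside the inducible subunits. Of 9 listed genes 7 were tested, 0 were higher and 1 was lower. B2M, the light chain of MHC class I, lay between 463 and 487 CPM, so it was expressed while PSMB8 and PSMB9 were near 0. TAP2, a peptide transporter subunit whose gene (chromosome 6, 32821833 to 32838770) lies beside PSMB8, fell from 1.74, 1.84 and 2.002 CPM to 0.964, 0.917 and 1.17 (-0.86, SE 0.204, adjusted p = 0.0419). Its counts were 45 to 48 in wildtype and 24 to 34 in knockout. The call was lost without any 1 of wildtype replicates 1, 2 and 3 or knockout replicates 1 and 2 (adjusted p 0.109 to 0.191) and with knockout replicate 3 alone (adjusted p = 0.416), and over all alternatives the adjusted p ranged from 0.0053 to 0.416. TAP1, which lies within the span of PSMB9 on the opposite strand, had 3.69, 3.95 and 4.09 CPM in wildtype and 2.65, 2.47 and 3.14 in knockout, with no overlap (-0.50, SE 0.139, adjusted p = 0.0799), and was called without knockout replicate 3 (-0.61, adjusted p = 0.0083; highest over alternatives 0.606). Without knockout replicate 3, 9.1% of all genes were called lower. The list was chosen with earlier results on TAP2 known, so it is no independent evidence of a direction.

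The COP9 signalosome, a complex related to the lid that removes the ubiquitin-like modifier NEDD8 from cullins, served for comparison. Of its 10 tested genes 0 were higher and 1 was lower, with a median log2 fold change of -0.0025. GPS1, one of its subunits (chromosome 17, 82050691 to 82057470, plus strand), fell from 244, 241 and 247 CPM to 209, 205 and 234 (-0.17, SE 0.0396, adjusted p = 0.036). GC correction ended the call (-0.068, adjusted p = 0.164), as did fits without any 1 of wildtype replicates 1, 2 and 3 or knockout replicates 1 and 2 (0.115 to 0.195) and with knockout replicate 3 alone (-0.058, adjusted p = 0.522), while without knockout replicate 3 the adjusted p was 3.73e-08. GPS1 and ADRM1 have 63.7% and 64.2% GC, above every tested proteasome member.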

How the data were processed

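Titles gave the group and replicate number of the 6 TC-71 libraries (3 wildtype, 3 XG knockout). The deposited whole-number counts per gene were made by the authors with featureCounts on GENCODE 33 exons, paired-end and reverse-stranded, per the file headers, with no option for multi-mapping or overlapping fragments. STAR 2.7.6a, Subread 2.0.1, GRCh38 and DESeq2 1.38.3 in R 4.2.2 are named in the submitters' processing notes. The authors also deposited log2 fold changes, a mean signal (normalized mean count), a test score and p-values from their own comparison, whose direction is not stated; 41 of 43 members had the sign of knockout minus wildtype there.

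Members and gene lists were chosen with earlier results of these data known. Genes passing filterByExpr (minimum count 10, minimum total 15) were scaled by TMM and tested with edgeR 4.0.16 in R 4.3.3 (quasi-likelihood, two-sided, Benjamini-Hochberg over 14425 genes, threshold 0.05), and CPM use TMM-adjusted library sizes. The common biological coefficient of variation was 3.28%. GC content came from the longest transcript of GENCODE 29 (99.54% of tested genes had one), and a lowess trend (span 0.5) of each library on it was removed for the GC correction. Exon overlap and principal transcripts also came from GENCODE 29, promoters from RefSeq. Other settings were relative log expression and upper quartile scaling, DESeq2 1.42.0, limma 3.58.1 voom, 2 other filters, a replicate block, and leaving out libraries. The motifs, levels per principal transcript and GC correction without knockout replicate 3 were chosen after seeing the data. The named genes are every member called, the catalytic pairs, activators and inhibitor, the smallest p and the highest and lowest level of each role, and the called genes of each list or, with none, the 2 with the smallest p; any member may also be named, and POMP, TAP1 and B2M were added with their values known. Some genes of the lists are not reported here. The scripts were tested on simulated data.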

Additional observations from a re-analysis of the deposited data

How the results depend on the processing

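The count of members called lower, 0 with all libraries, was 1 with relative log expression scaling, DESeq2, limma voom or no filter on low counts (PSMD8 each time), 1 with GC correction, GC correction with the replicate block, or GC correction without knockout replicate 3 (PSMC5 each time), and 2 with knockout replicate 3 alone. Leaving out 1 library gave 0 to 3 members lower and 0 to 3 higher, all of them without knockout replicate 3. The median log2 fold change of members ranged from -0.034 to -0.018 over those fits. Over all genes the calls numbered 196 with all libraries, 647 with no filter, 339 with GC correction, 1851 without knockout replicate 3, 388 with GC correction and without it, 125 with it alone, and 18 to 67 without another library. With the replicate number as a block, 37 genes and 0 members were called (median -0.025), and 185 genes with GC correction as well. Same-numbered libraries had correlations of -0.046, -0.024 and -0.051 in their deviations. The labels do not say if same-numbered libraries shared a culture or preparation, and these correlations cannot show it. The block ended the calls of ADRM1, TAP2 and GPS1 (adjusted p = 0.0697, 0.0941 and 0.0655).

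Estimates of some members changed sign in some settings, none of them called. With all libraries PSMD9 was -0.12 and PSMA3 0.059, so not all of these estimates lay near 0. With GC correction, GC correction with the block, and GC correction without knockout replicate 3, PSMA7 was 0.0038, 0.0044 and 0.0036, PSMB2 -0.020, -0.020 and -0.029, PSMC3 0.013, 0.013 and 0.027, and PSMD6 -0.038, -0.035 and -0.036, and PSMD4 was 0.0056 in the last. With knockout replicate 3 alone, PSMA3 was -0.0068, PSMA7 0.0049, PSMD6 -0.038, PSMD9 0.082 and PSME2 -0.021. Without 1 library, PSMD6 ranged from -0.025 to 0.046, PSME2 from -0.034 to 0.040, and the knockout minus wildtype share from -0.00609 to 0.00269 percentage points for PSMB8 and from -0.0515 to 0.0239 for PSMB10. Of 408 values of the 24 members named with all statistics, 370 kept direction and side of the threshold, 15 newly passed it and 23 changed sign.

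With 1 knockout library the spread comes from wildtype alone. At an adjusted p of 0.01, 0 members were called. Depth limits PSMB8, PSMB9 and PSMB10, and the intervals cover these libraries only.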
